A study of Mus musculus with 2 samples.

Results

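Direct target genes of the transcription factor p53, other than Cdkn1a, were followed in single-cell RNA sequencing of mouse retina. The 10 genes were taken by symbol from the 32285 in the deposited matrices: Bax, Aen, Perp, Phlda3, Trp53inp1, Mdm2, Ccng1, Sesn1, Sesn2 and Plk2. They are known p53 targets of apoptosis, arrest and feedback. No measured value enters the rule, but the genes were chosen with earlier results of these data known. Retinas at postnatal day 7 were dissociated with papain and run on the 10x Genomics 3' v3.1 platform, which counts the 3' ends of polyadenylated RNA as unique molecular identifiers (UMIs). The control library came from Mettl14 fl/fl or fl/wt retina, for which no Cre is named. The Mettl14-cKO library came from Mettl14 fl/fl retina carrying Chx10-Egfp/Cre, in which the Chx10 promoter, active in retinal progenitors and bipolar cells, drives Cre. Both groups thus carried at least 1 floxed Mettl14 allele, and the control mixed both genotypes. Each genotype had 1 library, and the labels do not give the number of animals in it. Every difference is therefore between these libraries, no test was possible, and all intervals are exact 95% intervals for counting error only.

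Mettl14 is a subunit of the methyltransferase that writes N6-methyladenosine (m6A) into messenger RNA. p53 is a transcription factor that is kept low in unstressed cells by the ubiquitin ligase Mdm2 and that accumulates after DNA damage and other stresses. It then raises genes that stop the cell cycle, of which Cdkn1a is the best known, genes that promote cell death, genes that temper growth signalling and metabolism, and, through Mdm2, its own inhibitor. In the postnatal retina some newborn neurons die by apoptosis as part of normal development, a process in which Bax has a central part.

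p53 binds a 10-base palindrome, usually as a pair of them side by side. The stretches upstream of start sites that hold it are shown as possible places for p53 to bind. Sites elsewhere in the genes were not searched. RefSeq start-site windows of 300 bases (GRCm38.p6) were found for 8 of the 10 genes. A perfect match to the p53 decamer, searched on both strands, was found in a window of Aen, Bax, Mdm2, Ccng1 and Sesn1, against 8.36% of all 32851 windows. The decamer is in capitals, each line is the strand of the gene, and the Aen line is short because it lies in an annotated exon. The Aen decamer lies upstream of a second annotated start site and 10 bases after the first. The positions were chr7:78895932-78895961 (plus strand) for Aen, chr7:45467060-45467129 (minus) for Bax, chr10:117710905-117710974 (minus) for Mdm2, chr11:40755432-40755501 (minus) for Ccng1 and chr10:41887236-41887305 (plus), at a second annotated start site, for Sesn1.
Aen: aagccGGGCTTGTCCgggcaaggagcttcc
Bax: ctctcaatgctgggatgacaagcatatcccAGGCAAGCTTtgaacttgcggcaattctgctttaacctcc
Mdm2: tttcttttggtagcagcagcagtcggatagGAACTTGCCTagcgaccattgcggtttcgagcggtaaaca
Ccng1: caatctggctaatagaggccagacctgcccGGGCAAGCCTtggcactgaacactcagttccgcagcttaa
Sesn1: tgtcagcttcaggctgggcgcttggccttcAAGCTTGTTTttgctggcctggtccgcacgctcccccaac

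When the full 20-base p53 site (a pair of decamers with no gap) was searched, Ccng1 held the closest match among these genes, with 1 mismatch, as few as in 0.067% of all windows. Aen and Sesn1 each held a match with 3 mismatches, as few as in 1.38% of windows. No decamer was in the windows of Phlda3, Sesn2 and Plk2, which says only that these letters are not in these 300 bases. The sites do not sort the genes by their values below: Ccng1, with the closest match, had a ratio near 1 over all cells, and Phlda3, with no decamer, had the largest ratio.

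After barcodes under 1000 UMIs were left out, 11426 control and 13502 Mettl14-cKO barcodes remained, with 54544552 and 58511730 UMIs and medians of 3487 and 3212. Barcodes shared between the libraries numbered 57, of which 39 were kept in both. Mettl14 stood at 27.1 and 14.5 counts per 1000000 UMIs (CPM), and since the floxed exons are not stated the 3' counts are a partial check of the deletion. Cells were put into classes by marker genes, and 9 named classes held at least 50 cells in both libraries: rod-like (3748 control and 2362 Mettl14-cKO cells), cone-like (458 and 443), bipolar-like (1636 and 776), amacrine-like (1157 and 1699), ganglion-like (216 and 345), horizontal-like (70 and 75), Müller glia-like (1090 and 1418), neurogenic progenitor-like (131 and 469) and astrocyte-like (68 and 121). The gate left 23.3% of control and 39.9% of Mettl14-cKO cells unassigned, and 17.1% and 27.4% of cells lay within 0.1 of a threshold, so a class is a range of scores and not a discrete type. In joint Leiden clusters of both libraries, most rod-like cells lay in cluster 0 in control and cluster 5 in Mettl14-cKO cells, and most Müller glia-like cells in clusters 13 and 3. The other named classes had the same leading cluster in both libraries.

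Over all cells 4 of the 10 genes were higher in the Mettl14-cKO library and 3 were lower. A gene was called when the ratio of its levels was at least 5 to 4 in either direction, their Poisson intervals lay apart, and it had at least 30 UMIs in the comparison. By that rule 19.5% of all 16164 measured genes were higher and 18.6% lower, so calls were common. The genes split by identity: Aen, Phlda3, Bax and Sesn2 were higher, Sesn1, Perp and Plk2 were lower, and Mdm2, Ccng1 and Trp53inp1 were not called. Their median log2 ratio was -0.05, beside -0.02 for all measured genes. Cdkn1a, measured the same way, stood at 27.3 CPM in control and 118 in Mettl14-cKO cells (log2 2.11), above the ratio of each of the 10 genes. The libraries differed in class shares, so ratios over all cells also carry composition. With class levels weighted by the control library's UMI shares, log2 was 1.27 for Aen, 1.53 for Phlda3, 0.52 for Bax and 0.66 for Sesn2. It was -0.29 for Sesn1, -0.51 for Perp and -0.89 for Plk2. For Mdm2 it was 0.01, for Ccng1 0.03 and for Trp53inp1 -0.13.

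**Figure D1:**
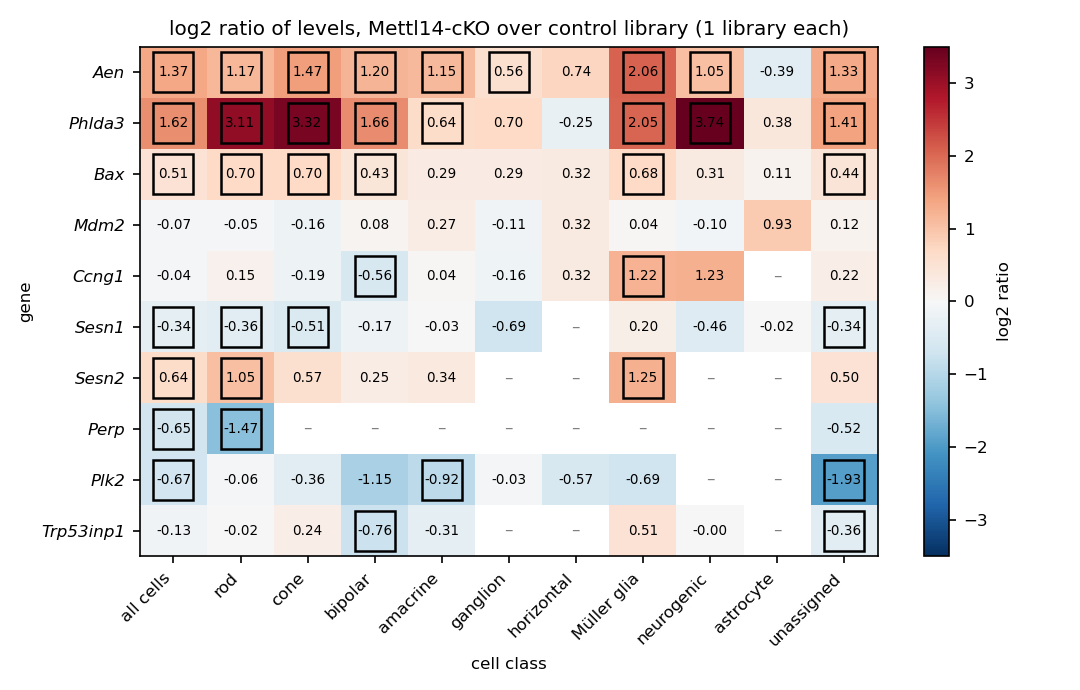
Log2 ratio of the level of each p53 target (rows) in the Mettl14-cKO over the control library, for all cells and each marker-gated class (columns). Boxes mark ratios of at least 5 to 4 in either direction whose Poisson intervals lie apart, and a dash marks fewer than 30 UMIs. Aen and Phlda3 are boxed in 7 and 6 of the 9 named classes, and Mdm2 in none.

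Among the genes of cell death, Bax, the pore-forming protein of the mitochondrial outer membrane (ENSMUSG00000003873, chr7:45461697-45466898, minus strand), was the best covered, with 14692 control and 22473 Mettl14-cKO UMIs. It stood at 269 CPM (265 to 274) in control and 384 (379 to 389) in Mettl14-cKO cells, a log2 ratio of 0.51 (0.48 to 0.54). The shift was modest and broad. Bax was above the control level in all 9 named classes. It was called higher in 4, and the calls over all cells and in bipolar-like cells were lost at a 1.5-fold minimum. The 4 were rod-like cells (228 against 370 CPM, log2 0.70), cone-like cells (219 against 355, 0.70), Müller glia-like cells (249 against 400, 0.68; 1043 and 2012 UMIs) and bipolar-like cells (339 against 456, 0.43). In amacrine-like cells the levels of 327 and 398 CPM had intervals that did not overlap, with a ratio of 1.22 that fell short of the fold required. In astrocyte-like cells, which arise outside the retinal progenitor lineage, the levels were 273 (232 to 320) and 296 (260 to 335) CPM, and the intervals overlapped. In the annotation the protein-coding Gm45808 overlaps Bax on its own strand, and reads in the shared part cannot be told apart here.

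Aen, a nuclease that takes part in the fragmentation of DNA in apoptosis (ENSMUSG00000030609, chr7:78895854-78911209, plus strand), stood at 22.4 CPM (21.2 to 23.7; 1222 UMIs) in the control and 57.8 (55.9 to 59.8; 3381 UMIs) in the Mettl14-cKO library, a log2 ratio of 1.37. It was called higher in 7 of the 9 named classes. The call in ganglion-like cells was lost at a 1.5-fold minimum, with at least 2000 UMIs per cell (log2 0.49) and after filtering with doublet removal (0.49), which leaves 6, as many as for Phlda3. The largest ratio was in Müller glia-like cells, at 27.0 CPM (22.2 to 32.4) against 113 (104 to 122), log2 2.06 (1.77 to 2.37). Rod-like cells stood at 19.9 and 44.8 CPM (log2 1.17), cone-like cells at 17.1 and 47.4 (1.47), bipolar-like cells at 17.6 and 40.3 (1.197) and amacrine-like cells at 22.4 and 49.5 (1.15). Ganglion-like cells stood at 36.8 and 54.2 (0.56), and neurogenic progenitor-like cells at 41.3 and 85.8 (1.05). Horizontal-like cells stood at 42.98 and 71.9 CPM, and astrocyte-like cells at 45.9 and 35.02; neither was called.

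The order of the classes by Aen level differed between the libraries. In the control library the highest levels were those of astrocyte-like, horizontal-like and neurogenic progenitor-like cells and the lowest that of cone-like cells, and all 8 pairs of neighbours in that order had overlapping intervals. In Mettl14-cKO cells the Müller glia-like class stood first, apart from the neurogenic progenitor-like cells next to them, and the other 7 pairs of neighbours overlapped. Astrocyte-like cells, highest in the control, were lowest there.

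The share of cells with an Aen UMI moved the same way. With each cell thinned to 1500 UMIs, 4.86% of 968 Müller glia-like control cells and 16.3% of 1339 such Mettl14-cKO cells held at least 1 Aen UMI (Clopper-Pearson 3.59 to 6.40% and 14.3 to 18.4%), with 122 and 79 shallower cells left out. Unthinned, the shares were 9.82% and 30.7%, with 3751 and 3412.5 UMIs in the median cell. The lowest thinned share in the control library was that of cone-like cells (2.21%, 10 of 452), and it serves as the background, since no class is known to lack Aen.

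Perp, a membrane protein of apoptosis and of desmosomes (ENSMUSG00000019851, chr10:18845020-18857073, plus strand), was the scarcest of the 10 genes, with 123 and 84 UMIs over all cells. It stood at 2.26 CPM (1.87 to 2.69) in control and 1.44 (1.14 to 1.78) in Mettl14-cKO cells (log2 -0.65). Rod-like cells, which held 62 and 15 of these UMIs, were the 1 named class with enough to compare (3.94 against 1.43 CPM, log2 -1.47). The call of Perp over all cells was lost with at least 2000 UMIs per cell (log2 -0.52). The level in astrocyte-like cells was the highest point estimate in both libraries (8.82 and 10.9 CPM), from 5 and 9 UMIs.

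Phlda3, a small membrane-binding protein that competes with the kinase Akt for phospholipids and so damps survival signalling (ENSMUSG00000041801, chr1:135766119-135769136, plus strand), had the largest ratio of the 10 genes over all cells. It stood at 7.85 CPM (7.12 to 8.63; 428 UMIs) in the control and 24.1 (22.9 to 25.4; 1411 UMIs) in the Mettl14-cKO library, log2 1.62 (1.46 to 1.78). Its largest ratios rested on few control UMIs. In cone-like cells it went from 9 to 74 UMIs (1.44 against 14.4 CPM, log2 3.32), in rod-like cells from 29 to 167 (1.84 against 15.9, 3.11), and in neurogenic progenitor-like cells from 1 to 58 (2.07 against 27.6). That last ratio of 13.4 has a counting interval of 2.31 to 537, and with joint Leiden classes its log2 fell from 3.74 to 1.39. Müller glia-like cells stood at 10.97 and 45.3 CPM (log2 2.05; 46 and 228 UMIs), bipolar-like cells at 6.103 and 19.3 (1.66) and amacrine-like cells at 21.2 and 33.1 (0.64).

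Phlda3 was not called in astrocyte-like and horizontal-like cells, which had its highest control levels. Astrocyte-like cells stood at 37.04 CPM (22.9 to 56.6) and 48.3 (34.5 to 65.8), and horizontal-like cells at 28.1 and 23.6. Ganglion-like cells, at 12.7 and 20.6, were not called either. Thinned to 1500 UMIs, 0.257% of control and 2.02% of Mettl14-cKO rod-like cells held a Phlda3 UMI (8 of 3107 and 41 of 2029; unthinned 0.747% and 6.44% at medians of 2474.5 and 2724 UMIs). The control value was itself the lowest above 0 of the named classes given at that depth, so no background share could be set beside it.

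Trp53inp1, a nuclear and autophagosomal protein that promotes p53-dependent death (ENSMUSG00000028211, chr4:11156431-11174379, plus strand), was not called over all cells, at 18.4 CPM (1005 UMIs) and 16.8 (984 UMIs), log2 -0.13. It was lower in bipolar-like cells (23.8 against 14.1 CPM, log2 -0.76; 191 and 49 UMIs) and in unassigned cells (23.2 against 18.1, -0.36). The call in unassigned cells was lost at a 1.5-fold minimum, on scaling by the median ratio (-0.28) and with at least 2000 UMIs (-0.32). That call was also lost with joint Leiden classes (-0.17) and under a stricter gate (-0.30). Müller glia-like levels of Trp53inp1 were 16.7 CPM (13.02 to 21.1) and 23.8 (19.8 to 28.5), whose intervals overlap.

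**Figure D2:**
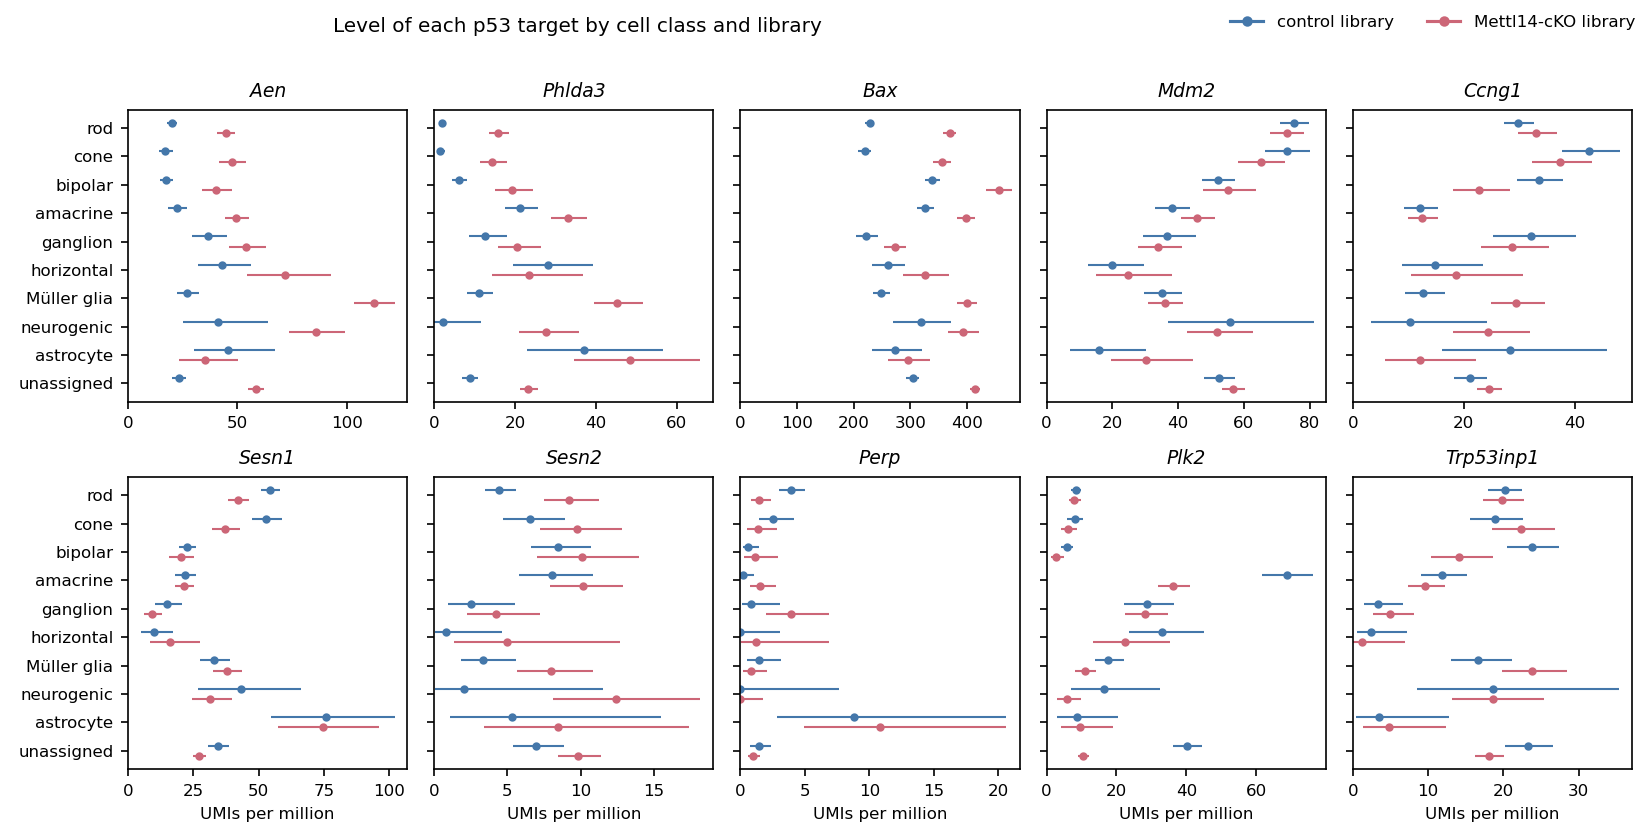
Level of each p53 target in CPM (horizontal axis, its own scale in each panel) by marker-gated class (vertical axis), in the control library (blue) and the Mettl14-cKO library (red). Points are levels of 1 library each and bars are exact 95% Poisson intervals. For Aen the red points lie to the right in every class except the astrocytes, and for Plk2 the amacrine level falls from 68.7 to 36.2.

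Of the feedback genes, Mdm2, the ubiquitin ligase that holds p53 in check (ENSMUSG00000020184, chr10:117688875-117710758, minus strand), stood at 56.2 CPM (54.2 to 58.2; 3065 UMIs) in the control and 53.7 (51.8 to 55.6; 3141 UMIs) in the Mettl14-cKO library, a ratio of 0.955 (0.909 to 1.004). It was called in none of the 9 named classes, all of which had enough UMIs. In rod-like cells, where its level was highest in both libraries, it stood at 75.3 and 72.97 CPM (ratio 0.969, 0.883 to 1.06). Its Müller glia-like levels were 35.1 and 35.97 (1.03, 0.820 to 1.28). Between these libraries, the counting intervals of Mdm2 in rod-like and Müller glia-like cells lay below the ratio of Bax there. Spread between animals is not part of these intervals.

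Ccng1, cyclin G1, which acts with a phosphatase on Mdm2 (ENSMUSG00000020326, chr11:40748552-40755311, minus strand), stood at 26.5 and 25.8 CPM over all cells (1447 and 1511 UMIs, log2 -0.04). Its values differed in sign between classes. It was called higher in Müller glia-like cells, at 12.6 CPM (9.47 to 16.5) against 29.4 (24.9 to 34.5), log2 1.22. It was called lower in bipolar-like cells, at 33.5 (29.6 to 37.8) against 22.7 (17.99 to 28.3), log2 -0.56, a call that was lost at a 1.5-fold minimum, under a stricter gate (-0.51) and by the mean over cells (-0.32). In rod-like cells it stood at 29.8 and 33.1 and in cone-like cells at 42.6 and 37.3, with no call. In neurogenic progenitor-like cells 5 and 51 UMIs gave 10.3 and 24.3 CPM, whose intervals overlap.

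The sestrins, which respond to stress by restraining the growth kinase mTORC1, went in opposite directions. Sesn2 (ENSMUSG00000028893, chr4:132492032-132510501, minus strand) stood at 5.83 CPM (5.21 to 6.51; 318 UMIs) in the control and 9.09 (8.34 to 9.90; 532 UMIs) in the Mettl14-cKO library, log2 0.64. It was called higher in rod-like cells (4.44 against 9.22 CPM, log2 1.05; 70 and 97 UMIs) and Müller glia-like cells (3.34 against 7.95, 1.251; 14 and 40 UMIs). The Müller glia-like call was lost under 4 alternatives, with log2 between 0.99 and 1.21: scaling by the median ratio, at least 2000 UMIs, filtering with doublet removal and a stricter gate. In the other 3 named classes with enough UMIs its log2 ratio lay between 0.25 and 0.57 without a call. Sesn1 (ENSMUSG00000038332, chr10:41809935-41908424, plus strand) stood at 38.5 CPM (2101 UMIs) and 30.5 (1783 UMIs), log2 -0.34. It was called lower in rod-like cells (54.5 against 42.3 CPM, log2 -0.36) and cone-like cells (52.99 against 37.3, -0.51), the photoreceptors. The calls over all cells and in rod-like cells were lost on scaling by the median ratio (-0.32 and -0.31), and all 3 at a 1.5-fold minimum. In astrocyte-like cells, its highest point estimate in both libraries, it stood at 75.8 and 74.9 CPM. Gm12981 lies on the strand of Sesn2 and 9930024M15Rik on that of Sesn1.

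Sesn2 is also a target of Atf4 in the integrated stress response, so the 18 genes fixed as a list of that response were read beside it. Of the 18, 5 were higher over all cells and 4 lower, with a median log2 of -0.05. That is near the 19.5% and 18.6% of all genes. Cebpb (log2 1.12), Stbd1 (0.71), Ddit4 (0.49) and Psat1 (0.45) had the highest ratios, and Atf4 itself (-0.62), Vldlr (-0.39), Ddit3 (-0.38) and Shmt2 (-0.34) the lowest.

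Plk2, a kinase of the cell cycle and of synapse remodelling that also responds to neural activity (ENSMUSG00000021701, chr13:110395046-110400844, plus strand), was lower in the Mettl14-cKO library. It stood at 21.7 CPM (20.5 to 22.96; 1183 UMIs) in the control and 13.6 (12.7 to 14.6; 798 UMIs) in the Mettl14-cKO library, log2 -0.67. Amacrine-like cells had the highest point estimate in both libraries, apart from the next class in the control library but overlapping ganglion-like cells in the Mettl14-cKO library. There it stood at 68.7 CPM (61.8 to 76.2) against 36.2 (31.8 to 41.1), log2 -0.92 (-1.16 to -0.68). Ganglion-like cells stood at 28.7 and 28.1 CPM, and rod-like cells at 8.31 and 7.98. In Müller glia-like cells the levels of 17.7 and 10.9 had overlapping intervals, and it was called lower there on scaling by the median ratio (log2 -0.73) and after filtering (-0.80). In unassigned cells it stood at 40.2 against 10.5 CPM (log2 -1.93), but among cells unassigned by the joint clusters its log2 ratio was 0.09, so that value rests on which cells the gate leaves out.

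Immediate early genes, which activity and dissociation raise, are read beside Plk2 as a fixed list of 20. Over all cells 6 were lower and 2 higher, with a median log2 of -0.14, beside 18.6% lower and 19.5% higher of all genes. Nr4a1 (-0.93), Ier2 (-0.76), Egr1 (-0.71) and Fos (-0.71) had the lowest ratios, and Dnajb1 (0.45), Jund (0.35), Dusp1 (0.27) and Hspa1a (0.23) the highest. In amacrine-like cells, where Plk2 was lower, 3 of 12 measured were higher and 4 lower, beside 12.5% and 8.84% of all genes. The part of the immediate early genes in the Plk2 value was not tested.

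The members' counts by class were as follows. In Müller glia-like cells 5 of 9 measured genes were higher and 0 lower (Aen, Phlda3, Bax, Ccng1 and Sesn2), where 15.2% of all measured genes were higher and 11.8% lower. Their median log2 ratio was 0.68 and that of all genes 0.04. Rod-like cells had 4 of 10 higher and 2 lower (all genes 15.4% and 17.3%). Cone-like cells had 3 of 9 higher and 1 lower (12.8% and 13.9%), and bipolar-like cells 3 of 9 higher and 2 lower (12.9% and 13.8%). Amacrine-like cells had 2 of 9 higher and 1 lower (12.5% and 8.84%). Neurogenic progenitor-like cells had 2 of 7 higher and 0 lower (6.25% and 5.92%), and ganglion-like cells 1 of 7 higher and 0 lower (5.69% and 3.73%). Horizontal-like cells had 0 of 6 called (5.17% higher and 3.94% lower) and astrocyte-like cells 0 of 5 (2.11% and 1.96%). Unassigned cells had 3 of 10 higher and 3 lower (13.8% and 20%). The share of members called higher exceeded that of all genes by the widest margin in Müller glia-like cells.

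Barcodes under 1000 UMIs, left out above, gave 3 of 8 measured members higher (Aen, Phlda3 and Bax) and 1 lower (Plk2), where 7.88% of all genes were higher and 7.36% lower.

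**Figure D3:**
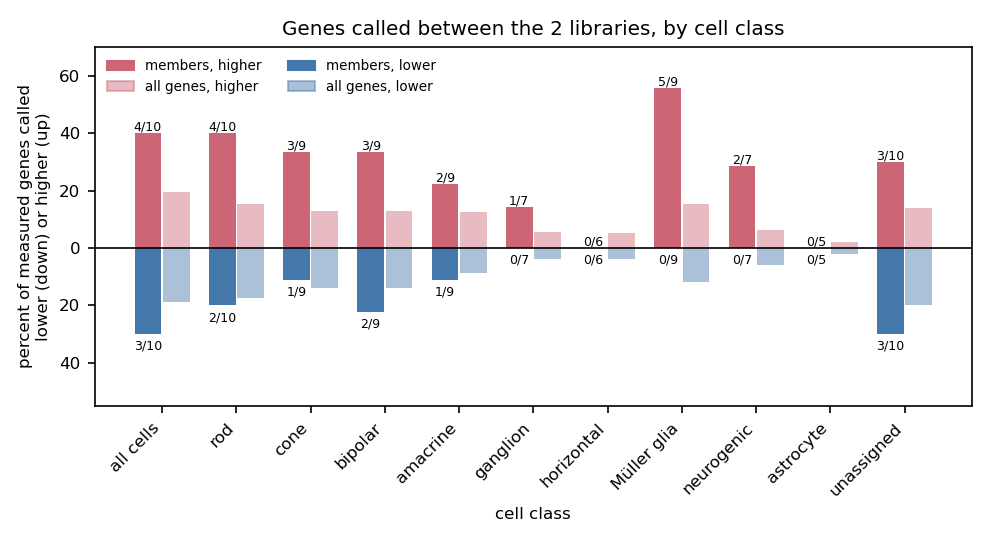
Percent of measured genes called higher (up) or lower (down) in the Mettl14-cKO library, for the 10 p53 targets (dark bars, with counts) and for all genes (light bars), in all cells and in each marker-gated class. In Müller glia 5 of 9 members are called higher, beside 15.2% of all genes.

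Other values differed with library in the Müller glia-like class. The median over cells of the summed 12 Müller markers was 130 UMIs per 10000 in control and 65.5 in Mettl14-cKO cells, and that of the 12 neurogenic markers 3.16 and 4.10. Ribosomal protein genes made up 10.5% of UMIs in control and 13.9% in Mettl14-cKO cells, and mitochondrial genes 3.58% and 2.76%. Of 14 measured immediate early genes 7 were lower and 1 higher there, beside 11.8% and 15.2% of all genes. Mettl14 stood at 23.4 and 15.9 CPM there (98 and 80 UMIs, ratio 0.680, 0.500 to 0.923) and was not called. It was called lower in rod-like (ratio 0.545), cone-like (0.490), bipolar-like (0.565), amacrine-like (0.599), ganglion-like (0.331) and neurogenic progenitor-like cells (0.231). The part of these shifts in the values of the p53 targets was not tested.

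Astrocyte-like cells served as a class of another lineage inside the same libraries. Mettl14 had 12 control and 9 Mettl14-cKO UMIs in them, too few to show whether it was spared in this class. Aen, Phlda3, Bax, Mdm2 and Sesn1 had enough UMIs there, and none was called. Cdkn1a was higher there, on 2 control and 28 Mettl14-cKO UMIs (log2 3.26, 1.27 to 6.38). The intervals are wide, since the class held 68 and 121 cells: that of the Aen ratio ran from 0.434 to 1.35 and that of Phlda3 from 0.751 to 2.33. For Aen the upper bound lies below the 4.18-fold ratio of Müller glia-like cells and its interval of 3.41 to 5.16.

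Within the Mettl14-cKO library, cells of a class were then split by whether they held a Cdkn1a UMI. In Müller glia-like cells 246 held one and 1172 did not, with median depths of 3628.5 and 3364.5 UMIs. There 6 of the 9 measured p53 targets were higher in cells with a Cdkn1a UMI and 0 were lower, where 1.36% of all 10261 measured genes were higher and 0.663% lower. Phlda3 stood at 125 CPM with and 26.5 without a Cdkn1a UMI, a ratio of 4.72 (3.61 to 6.18; 120 and 108 UMIs). Ccng1 stood at 64.7 and 21.1 (ratio 3.06, 2.17 to 4.30), Trp53inp1 at 40.7 and 19.9 (2.05, 1.36 to 3.03) and Aen at 185 and 95.7 (1.93, 1.61 to 2.31). Mdm2, which was not called between the libraries, stood at 53.2 and 31.9 (1.67, 1.18 to 2.32), and Bax at 577 and 358 (1.61, 1.46 to 1.78). Sesn1 stood at 35.5 and 38.3 (0.926, 0.619 to 1.35). Sesn2 (14 and 26 UMIs) and Plk2 (17 and 38 UMIs) had ratios of 2.29 and 1.90 and were not called.

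The same split brought out other p53 targets. Of 35 fixed as a second list, 21 were measured in these cells and 9 were higher with a Cdkn1a UMI: Btg2, Ano3, Sulf2, Zmat3, Rap2b, Xpc, Bbc3, Ckap2 and Rps27l. No gene of the 9 measured p53 regulators or the 8 measured paralogues of the members was called. Summed Müller glia markers stood at 60.4 UMIs per 10000 with and 68.0 without a Cdkn1a UMI, and summed rod markers at 22.2 and 13.3. The rod-marker difference moves with the split, and its part was not tested. When every cell was thinned to 1500 UMIs before the split (147 and 1192 cells), Phlda3 (6.59), Ccng1 (2.47), Bax (1.72) and Aen (1.70) were still called. Mdm2 (1.59, 11 and 56 UMIs) and Trp53inp1 (1.07, 5 and 38 UMIs) were not. Mdm2 also lost its call after filtering with doublet removal (1.55) and under a stricter gate (1.58), and Plk2 gained one after that filtering (2.88).

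In rod-like cells the split gave smaller ratios, and depth differed between its sides (medians of 4837 and 2236.5 UMIs in 620 and 1742 cells). Phlda3 (1.71, 1.24 to 2.35), Ccng1 (1.35, 1.09 to 1.68) and Aen (1.35, 1.12 to 1.62) were higher, 3 of 9 measured with 0 lower, where 0.814% of all genes were higher and 0.953% lower. Bax had a ratio of 1.10 and Mdm2 of 1.02. None of the 21 measured genes of the second list of targets was called. For Phlda3, Ccng1 and Bax these ratios had intervals wholly below those in Müller glia-like cells.

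The split was also made in the other Mettl14-cKO classes with at least 50 cells on each side. Cells with a Cdkn1a UMI were deeper in cone-like (medians of 13539.5 and 5876 UMIs), amacrine-like (5157.5 and 2970) and bipolar-like cells (5071.5 and 3466.5). Over all Mettl14-cKO cells the medians were 4645.5 and 2963 UMIs. Thinning before the split was done in Müller glia-like cells only. In neurogenic progenitor-like cells (75 with and 394 without a Cdkn1a UMI) Phlda3 had a ratio of 5.57 (3.19 to 9.93), Aen of 1.92 (1.40 to 2.63) and Bax of 1.49 (1.28 to 1.73). That made 3 of 7 measured members higher and 0 lower, where 2.9% of all genes were higher and 1.64% lower. In cone-like cells Bax (1.27) was the 1 member of 9 called higher, with 0 lower (all genes 0.93% and 1.98%). No member was called in bipolar-like cells (0 of 8, all genes 1.57% higher and 1.29% lower), amacrine-like cells (0 of 9, 2.8% and 4.68%) or ganglion-like cells (0 of 6, 5.32% and 7.2%). Phlda3 ratios there ran from 1.03 in bipolar-like to 1.21 in ganglion-like cells. Over all Mettl14-cKO cells, where classes are mixed, Phlda3 (1.66) and Ccng1 (1.56) were higher and 0 of 10 members lower (9.8% and 12.7%).

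The split was also made in the control library. Over all control cells (660 with and 10766 without, median depths of 6279.5 and 3395.5 UMIs), Phlda3 (1.73, 1.34 to 2.23) and Aen (1.29, 1.09 to 1.51) were higher. Sesn1 (0.773, 0.661 to 0.898) and Trp53inp1 (0.574, 0.442 to 0.735) were lower. In that comparison 17.6% of all genes were higher and 15.8% lower, so the members were called about as often as other genes. In control rod-like cells (130 and 3618, median depths of 4693 and 2418 UMIs) 0 of 9 measured members were called. Of all genes there 0.99% were higher and 0.613% lower. Aen had a ratio there of 1.249 (0.779 to 1.91) and Bax of 1.01 (0.876 to 1.16), and Phlda3, with 3 and 26 UMIs, was below the minimum (1.82, 0.353 to 5.95). In control amacrine-like cells (147 and 1010, median depths of 6401 and 3763.5 UMIs) Plk2 had a ratio of 0.555 (0.392 to 0.767). It was the only measured member called there, and in control bipolar-like cells (54 and 1582, median depths of 6093.5 and 4070.5 UMIs) none was called. The share of all genes called was not counted for these splits. In the control library fewer than 50 Müller glia-like cells held a Cdkn1a UMI, and the split was not made there.

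**Figure D4:**
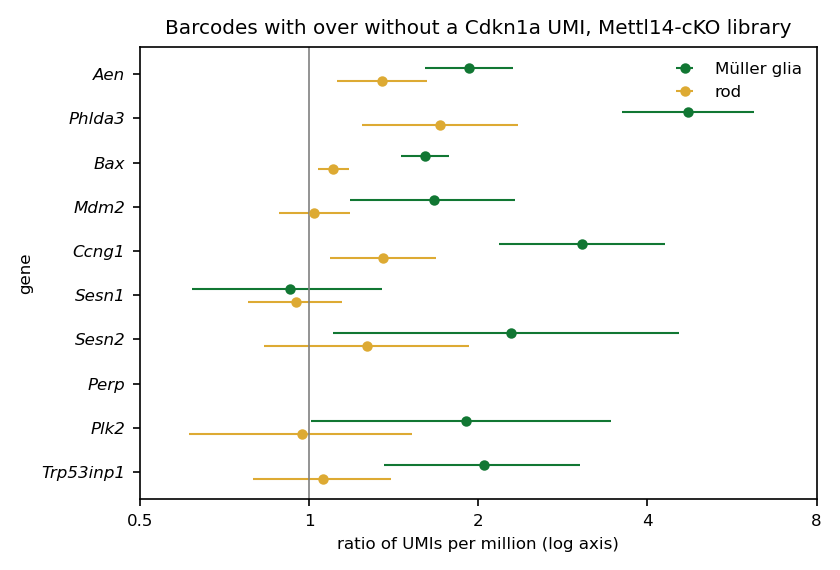
Ratio of the level of each p53 target in Mettl14-cKO cells with over without a Cdkn1a UMI (log axis), in Müller glia (green) and rods (yellow), with exact 95% counting intervals. A grey line marks a ratio of 1. Phlda3 (4.72) and Ccng1 (3.06) lie farthest right in Müller glia, and Sesn1 (0.926) lies to the left of the line. Perp had fewer than 30 UMIs.

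The second list of 35 p53 targets gave a mixed picture between the libraries, as the 10 genes did. Over all cells 10 of 30 measured were higher and 4 lower, with a median log2 of 0.14, beside 19.5% and 18.6% of all genes. Rap2b (1.13), Dyrk3 (0.88), Trp53i11 (0.88) and Ckap2 (0.82) had the highest ratios, and Zfp365 (-0.87), Gadd45a (-0.62), Ddb2 (-0.55) and Sulf2 (-0.35) the lowest. In Müller glia-like cells 7 of 22 were higher and 1 lower, beside 15.2% and 11.8% of all genes. The higher ones included Bbc3, a death-promoting partner of Bax (28 and 80 UMIs, log2 1.251), and Zmat3 (0.94). Bbc3 was also higher in rod-like cells (0.64) but lower in bipolar-like cells (46.1 against 29.3 CPM, log2 -0.65). Gadd45a, which also answers to other stress factors, was thus among the lower genes. Of the 12 regulators of p53, 3 were higher and 0 lower over all cells, beside 19.5% and 18.6% of all genes: Chek1 (0.98), Chek2 (0.77) and Atr (0.37), kinases of the DNA damage checkpoint. Atr was also higher in bipolar-like, amacrine-like and Müller glia-like cells, while Chek1 and Chek2 had too few UMIs in each named class. Cycling progenitor-like cells, too few in the control to compare, numbered 44 there (0.385%) and 218 in the Mettl14-cKO library (1.61%). Without them Chek1 (0.78) and Atr (0.37) were still higher and Chek2 (0.36) was not called, and each of the 10 members had the same call as with them. By class the regulators went both ways. Ppm1d and Atr were higher in bipolar-like cells (2 of 9, all genes 12.9%) and Müller glia-like cells (2 of 9, 15.2%), where 0 were lower. Usp7 and Ep300 were lower in rod-like cells (2 of 9, all genes 17.3%), and these and Trp53bp1 in cone-like cells (3 of 9, 13.9%). Trp53 and Hipk2 were lower in neurogenic progenitor-like cells (2 of 9, 5.92%). In these 3 classes 0 were higher. Hipk2 was higher in unassigned cells. Trp53 itself stood at 35.7 and 38.7 CPM over all cells (log2 0.12), and at 107.5 and 64.3 in neurogenic progenitor-like cells (-0.74), where Aen and Phlda3 were higher. Among regulators with at least 100 UMIs, Ep300 (-0.28), Usp7 (-0.26), Trp53bp1 (-0.08) and Atm (-0.04) had the lowest ratios over all cells, without a call.

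Paralogues that are not among the 10 genes often had other values. Sesn3, the third sestrin (4792 and 4407 UMIs), had a log2 ratio of -0.22 over all cells and was lower in Müller glia-like cells (-0.53), where Sesn2 was higher. Phlda1, a relative of Phlda3, was lower in Müller glia-like cells (35.3 against 13.1 CPM, log2 -1.43), in which Phlda3 was higher. Of the relatives of Bax, Bok (0.53) and Bak1 (0.34) were higher over all cells. Pmp22 (-0.40), a relative of Perp, and Trp53inp2 (-0.75), of Trp53inp1, were lower over all cells. Plk1 (1.24) and Plk3 (0.80), relatives of Plk2, were higher over all cells. Of the Plk1 UMIs 40 of 110 in control and 186 of 278 in Mettl14-cKO cells lay in the cycling progenitor-like class, and without it Plk1 was not called (0.32) and Plk3 was (0.80). Ccng2 (0.01), Mdm4 (-0.02), Isg20 (-0.19) and Phlda1 (0.28) were not called over all cells, and Phlda2 had too few UMIs. Among 19 genes of the Bcl2 family and caspases 4 were higher and 5 lower over all cells, near the 19.5% and 18.6% of all genes. Bik (1.31), Casp8 (0.65), Casp6 (0.41) and Bak1 had the highest ratios, and Bmf (-1.11), Xiap (-0.66), Hrk (-0.58) and Casp9 (-0.38) the lowest.

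The pentamer GGACT, in which m6A is often placed, was counted in the longest coding transcript of each gene, with a median of 1.01 per kilobase over all protein-coding genes. Among the 4 genes higher over all cells it stood at 2.73 per kilobase in Bax, 2.59 in Sesn2, 1.39 in Phlda3 and 1.21 in Aen. Among the 3 lower it stood at 2.14 in Plk2, 1.31 in Sesn1 and 0.512 in Perp, and among the 3 not called at 1.14 in Ccng1, 0.636 in Mdm2 and 0.370 in Trp53inp1. The ranges of the higher and lower genes overlapped. No methylation was measured here.

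Genes whose levels followed those of a member across the 18 sums of class and library were found by Pearson's r on log2(CPM + 1), among 9684 genes with at least 1000 UMIs. The points share libraries and depths, so r is a description. The closest were Timm8a1 (0.91), Nhp2 and 1110012L19Rik for Aen, Pigyl (0.90), Lysmd2 and Kctd6 for Phlda3, and Rbmxl1 (0.93), Gdf11 and Zfp637 for Bax. For Mdm2 they were Tsc1 (0.96), Sfswap and Dgcr8, for Ccng1 Trip11 (0.85), Kif13a and Cbx7, and for Trp53inp1 Zfp131 (0.97), Brwd3 and Phip. For Sesn1 they were Cd164 (0.93), 2610035D17Rik and Stxbp3, for Sesn2 Irf2bp1 (0.86), Zfp974 and D11Wsu47e, and for Plk2 Epb41l4a (0.89), Cnr1 and Arsb. No gene of the 10 was among the 3 closest of another, but Sesn2 (850 UMIs) and Perp (207) were below the 1000 UMIs needed to appear.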

How the data were processed

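The authors' deposited values are raw UMI counts per gene and barcode, made with Cell Ranger 6.1.1 on mm10 per the submitters' processing notes and not normalized. Barcodes with at least 1000 UMIs were gated on 150 markers of 15 classes (mean z-score of at least 0.5, lead of 0.25, at least 3 markers detected). The gate was settled after class sizes, leading genes and overlap with clusters were seen, without member levels by class. Counts were summed per library and class, scaled to CPM and given exact Poisson, conditional or Clopper-Pearson 95% intervals (scipy 1.17.1). A gene with 0 UMIs in 1 library took a floor of 3 counts there. Doublets were kept, except in an alternative with Scrublet (scanpy 1.11.5), which marked 7.30% of the control barcodes and 6.31% of the Mettl14-cKO barcodes that passed its filter. The call rule was tested on simulated counts. The members and lists were chosen with earlier results of these data known. Named are all members and paralogues, the 3 most similar genes of members with at least 300 UMIs, and the 4 highest and 4 lowest of each other list with at least 100 UMIs. Other genes were chosen after their values were seen.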

Additional observations from a re-analysis of the deposited data

Results flagged for a closer look

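Ccng1 had opposite values in 2 classes under the same contrast: its log2 ratio was 1.22 in Müller glia-like and -0.56 in bipolar-like cells. With 1 library per genotype that difference was not tested, and the bipolar-like call was lost under 3 alternatives, with a log2 as near to 0 as -0.32.

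Barcodes under 1000 UMIs, which no other comparison used, gave 3 members called higher in the Mettl14-cKO library and 1 lower of 8 measured, where 7.88% of all genes were higher and 7.36% lower. Aen had 34 control and 68 Mettl14-cKO UMIs there (log2 1.03), Phlda3 11 and 34 (1.66) and Bax 285 and 434 (0.64). Plk2 was lower, with 54 and 22 (-1.26).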

How the results depend on the processing

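No paired analysis was possible because each genotype had 1 library, and no replicate could be left out. Of 180 counts of called members recomputed under an alternative, 160 stayed within 1.5 times the main count and 20 did not, each by 1 or 2 genes. At 1.5-fold the members called lower numbered 1 in rod-like, 0 in cone-like, 1 in bipolar-like and 1 in unassigned cells, and those called higher 0 in ganglion-like cells. Scaling by the median ratio gave 1 lower in rod-like, Müller glia-like and unassigned cells. Filtering with doublet removal gave 0 higher in ganglion-like, 1 higher in horizontal-like and 1 lower in Müller glia-like cells. With at least 2000 UMIs, 0 were higher in ganglion-like and 1 lower in unassigned cells. Joint Leiden classes gave 1 higher in horizontal-like, 1 lower in neurogenic progenitor-like and 1 lower in unassigned cells. A stricter gate gave 1 lower in bipolar-like, 1 higher in horizontal-like and 1 lower in unassigned cells, and the mean over cells 1 lower in bipolar-like cells. The cause was not tested. The value that reversed was Plk2 in unassigned cells, with a log2 ratio of 0.0871 under joint Leiden classes. Of 582 ratios of single members, 564 stayed within the counting interval of the main value and 17 moved outside it. Among the widest ranges of log2 were Phlda3 in neurogenic progenitor-like (1.39 to 4.14) and unassigned cells (1.32 to 4.56) and Plk2 in bipolar-like cells (-1.57 to -0.24). Over the alternatives the log2 ratio in Müller glia-like cells ran from 1.91 to 2.19 for Aen, 1.87 to 2.19 for Phlda3, 0.64 to 0.75 for Bax and 1.08 to 1.33 for Ccng1, and that of Plk2 in amacrine-like cells from -1.08 to -0.84. The alternatives for cells with a Cdkn1a UMI, and leaving out cycling progenitor-like cells, were chosen after seeing the data. Depth limits Perp and Sesn2, which had under 30 UMIs in 8 and 4 of the 9 named classes.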
